A study of Homo sapiens with 6 samples.

Results

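The 10 genes described here are the Notch receptors *NOTCH1*, *NOTCH2* and *NOTCH3*, the ligands *JAG1*, *JAG2* and *DLL1*, the DNA-binding factor *RBPJ* and the target genes *HES1*, *HES4* and *HEY1*. They were chosen by name, as the Notch pathway of keratinocyte commitment, and each was found once among the 21475 genes measured. RNA was sequenced from 3 WT and 3 *FGFR2* KO cell lines of HaCaT, a spontaneously immortalized human keratinocyte line, with 1 library per cell line. The KO lines carry a CRISPR/Cas9 knockout made with an sgRNA against exon 7 of *FGFR2*, the receptor for FGF7 and FGF10, and were each expanded from a single sorted cell. The WT lines of the study were the original population and expanded WT clones, the HaCaT lines sequenced are described in it as clonally expanded, and the sample labels give only replicate numbers. All lines were grown in DMEM with serum, and the sample labels name no treatment. Since each library stands for 1 line, a difference between the groups was read against the spread among the 3 lines of each.

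Notch receptors are single-pass membrane proteins that are activated by Jagged or Delta-like ligands on a neighbouring cell. Ligand binding exposes the receptor to ADAM proteases and then to γ-secretase, and the released intracellular domain enters the nucleus, binds RBPJ and recruits Mastermind coactivators to target genes such as the HES and HEY repressors. In the epidermis, Notch signaling is known to promote the exit of basal keratinocytes from the cell cycle and their commitment to differentiation.

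Expression was given by the authors as FPKM, a fragment count normalised for transcript length and library size, so that levels of different genes can be set side by side. The steps between low values correspond to between 67700000 and 87900000 fragments per library. *FGFR2* itself was at 21.6, 39.7 and 15.0 FPKM across the WT lines and at 3.04, 2.26 and 4.31 FPKM across the KO lines, where values of the lines are always given in the order of replicates 1, 2 and 3. All 8 keratinocyte markers on a fixed list, among them *KRT5*, *KRT14* and *TP63*, were expressed, with a summed level of 12040 to 22270 FPKM in WT and 17620 to 35310 FPKM in KO libraries. The summed fibroblast markers lay between 7.99 and 33.2 FPKM in WT and 6.91 and 12.6 FPKM in KO libraries, the summed endothelial markers between 18.2 and 27.2 FPKM and between 5.82 and 17.5 FPKM, and the summed immune markers between 12.4 and 22.1 FPKM and between 5.26 and 11.7 FPKM. Those of melanocyte markers lay between 3.06 and 5.59 FPKM and between 1.24 and 4.86 FPKM. In each of these 4 lists only 2 genes averaged over 0.5 FPKM, such as *COL1A1*, *VWF* and *CD68*, whereas *COL3A1* and *TEK* reached at most 0.0201 and 0.00304 FPKM and *CD1A* was listed at 0 throughout. The fibroblast marker *DCN* and the endothelial marker *CDH5* were at 15.5 and 4.92 FPKM in WT replicate 2. In the other libraries they reached at most 1.66 and 0.128 FPKM. The part of other cell types in the Notch values was not tested. In bulk RNA, fewer cells of a type and less RNA per cell cannot be told apart. Of the 6 libraries, KO replicate 3 stood apart most, with the highest or lowest value for 59.0% of the tested genes, and WT replicate 2 came next with 52.0%. Mitochondrial genes took 11.9% of the FPKM in KO replicate 3 and between 15.8% and 27.6% in the other libraries. Beside several results below, the value without KO replicate 3 or another single library is therefore given.

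In the comparison of *FGFR2* KO with WT lines, *HES4* and *JAG2* had higher FPKM in every KO library than in any WT library, and *NOTCH2* had lower FPKM in every KO library. The mean of *HEY1* was 2.5 times as high in KO as in WT lines, with overlapping values. *HES1*, the most abundant of the targets, had a mean in KO lines of 80.5% of that in WT lines, and its values overlapped as well. The other members, *NOTCH1*, *NOTCH3*, *JAG1*, *DLL1* and *RBPJ*, had overlapping groups and KO means between 86.3% and 138% of the WT means. The comparison was made with limma on log2(FPKM + 0.5) over the 12241 genes that averaged 0.5 FPKM or more, with Benjamini-Hochberg adjustment. A gene counted as called when its adjusted p did not exceed 0.05 and its log2 fold change was 0.5 or more in either direction. All 10 members passed the filter on low values, and limma called 0 of them and 0 of all tested genes, which is a background of 0%. The targeted gene *FGFR2* was itself not called, with a log2 fold change of -2.73 and an adjusted p of 0.261 from limma. The lack of calls therefore does not show that genes were unchanged. The study, with a count model, did report differentially expressed genes, *FGFR2* among them. With the unadjusted p held to the same threshold and the same minimum change, limma found 0 of the 10 members and 12.5% of all tested genes. With single libraries left out, it found 0 or 1 member, and between 5.14% of all tested genes without KO replicate 3 and 18.4% without KO replicate 2. In the main comparison only *JAG2* of the members had an unadjusted p under 0.05, with a change under that minimum. Which members had a p under 0.05 depended on the scaling of the libraries. The groups did not overlap for 3 of the 10 members, 2 higher and 1 lower in KO lines, and for 24.1% of all tested genes (18.3% higher and 5.77% lower), so that the members were close to the background. The mean was higher in KO lines for 7 members and lower for 3, beside a higher mean in 60.6% of all tested genes (50% with median-of-ratios scaling), and their median log2 fold change was 0.15, beside 0.09 for all tested genes. For a single gene, a two-sided exact permutation test of 3 against 3 lines has a smallest p of 0.1.

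**Figure D1:**
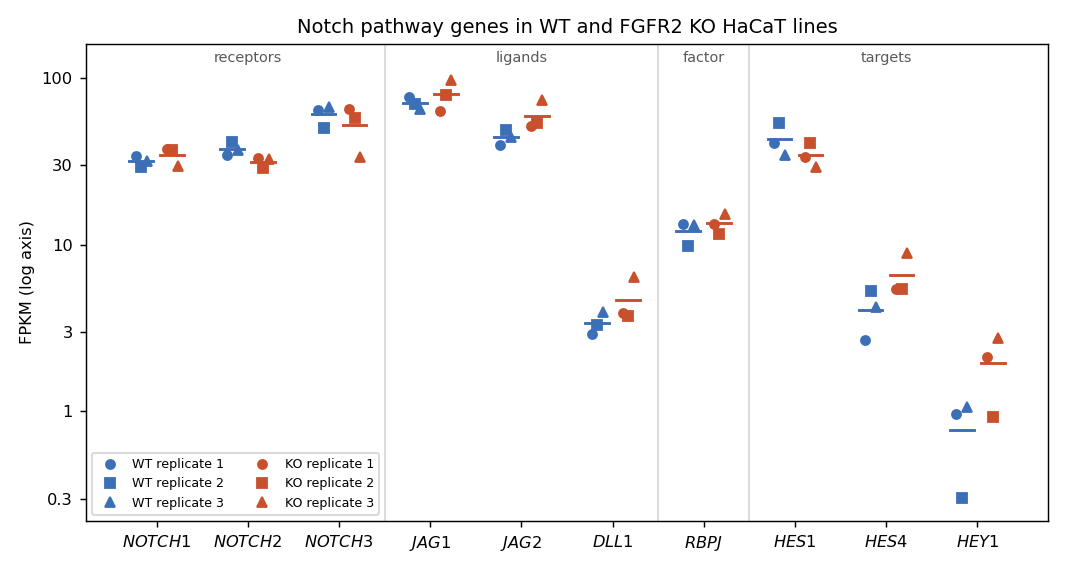
FPKM of the 10 Notch pathway genes on a log axis in each of the 3 WT (blue) and 3 *FGFR2* KO (orange) libraries, with the replicate shown by the symbol and the mean of each group as a short line. *JAG1* spans 63.4 to 97.1 FPKM and *HEY1* 0.303 to 2.77 FPKM, and KO replicate 3 (orange triangle) is the highest library for 6 genes and the lowest for *NOTCH3* and *HES1*.

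*NOTCH1* (ENSG00000148400), on chromosome 9 between 136494433 and 136546048 (minus strand) in GRCh38, encodes the receptor best known for driving keratinocyte commitment. It was at 33.8, 29.1 and 31.7 FPKM across the WT lines and at 37.7, 36.9 and 29.5 FPKM across the KO lines. KO replicate 3 lay within the WT range and the other KO libraries above it. Its log2 fold change was 0.13 (standard error 0.15, 95% interval -0.21 to 0.47, adjusted p = 0.668 from limma), and it ran from 0.07 to 0.24 with each library left out in turn, the highest without KO replicate 3.

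*NOTCH2* (ENSG00000134250), on chromosome 1 between 119911553 and 120100779 (minus strand), encodes a second receptor of the same build. Its level was 34.5, 41.3 and 36.8 FPKM across the WT lines and 33.1, 29.0 and 32.5 FPKM across the KO lines. The highest KO value was just under the lowest WT value, so that the groups did not overlap, and the gap between them was smaller than the range of either group. The log2 fold change was -0.25 (standard error 0.13, 95% interval -0.56 to 0.07, adjusted p = 0.378 from limma). Of the receptors, *NOTCH2* depended least on single libraries, and its log2 fold change stayed between -0.30 and -0.18 with each library left out in turn. With libraries scaled by the median of ratios, by quantiles or to the summed FPKM of nuclear genes, it was -0.340, -0.351 and -0.325. The unadjusted p from limma was then 0.0237, 0.0218 and 0.0246, and the adjusted p 0.320, 0.304 and 0.298. Reads of *NOTCH2* can be shared with its near-identical partial copies, and the level of *NOTCH2* is uncertain to that extent. Of these copies, *NOTCH2NLA* had between 5.79 and 12.4 FPKM and *NOTCH2NLC* between 1.80 and 3.72 FPKM, while *NOTCH2NLB* and *NOTCH2NLR* reached at most 1.13 and 1.004 FPKM. *NOTCH2NLA* and *NOTCH2NLC* were both highest in WT replicate 2, the library in which *NOTCH2* was highest too.

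*NOTCH3* (ENSG00000074181), on chromosome 19 between 15159038 and 15200995 (minus strand), was the receptor with the highest level. It was at 64.1, 50.2 and 67.1 FPKM across the WT lines and at 65.6, 57.4 and 33.7 FPKM across the KO lines. KO replicates 1 and 2 lay inside the WT range, and only KO replicate 3 lay below it. The log2 fold change of -0.25 (standard error 0.26, adjusted p = 0.627 from limma) turned to 0.03 without KO replicate 3. The fourth receptor gene, *NOTCH4*, did not exceed 0.0832 FPKM. In sum, the 3 expressed receptor genes reached 129.6 ± 7.85 FPKM for WT against 118.4 ± 20.8 FPKM for KO (SD, n = 3 each), a difference smaller than the spread among the KO lines (two-sided exact permutation test, p = 0.7).

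Among the ligands, *JAG1* (ENSG00000101384), on chromosome 20 between 10637684 and 10673999 (minus strand), had the highest level of all 10 genes. It was at 77.3, 69.9 and 65.3 FPKM across the WT lines and at 63.4, 79.2 and 97.1 FPKM across the KO lines. The KO libraries held both the lowest and the highest value. For *JAG1* the log2 fold change was 0.15 (standard error 0.18, 95% interval -0.26 to 0.57, adjusted p = 0.672 from limma) and it was 0.004 without KO replicate 3 and 0.31 without KO replicate 1.

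*JAG2* (ENSG00000184916), on chromosome 14 between 105140982 and 105168824 (minus strand), encodes the second Jagged ligand. It was at 39.7, 48.8 and 44.5 FPKM across the WT lines and at 51.5, 53.8 and 73.4 FPKM across the KO lines, with every KO library above every WT library. Group means were 44.3 ± 4.57 FPKM for WT and 59.6 ± 12.04 FPKM for KO (SD, n = 3 each). The log2 fold change was 0.41 (standard error 0.17, 95% interval 0.004 to 0.81), with an unadjusted p of 0.0483 and an adjusted p of 0.295 from limma. It was 0.25 without KO replicate 3, and between 0.33 and 0.50 with any other library left out. The groups of *JAG2* also did not overlap when the libraries were scaled by the median of ratios, by quantiles or to the summed FPKM of nuclear genes. Its log2 fold change was then smaller, at 0.314, 0.291 and 0.329, with an unadjusted p of 0.0921, 0.0799 and 0.0666 from limma.

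*DLL1* (ENSG00000198719), on chromosome 6 between 170282206 and 170306565 (minus strand), encodes a Delta-like ligand known from clusters of basal keratinocytes with stem cell properties. It was expressed at a much lower level than the Jagged genes, with 2.92, 3.28 and 3.97 FPKM across the WT lines and 3.89, 3.73 and 6.44 FPKM across the KO lines. KO replicates 1 and 2 lay within the WT range. The log2 fold change of 0.39 (standard error 0.24, adjusted p = 0.432 from limma) was 0.16 without KO replicate 3. *DLL1* overlaps *FAM120B* on the opposite strand, which reached 14.0 FPKM. The libraries were strand-specific, and whether the quantification used the strand is not given in the sources used here. Reads of both genes may have been mixed where their transcripts overlap, and whether they do was not examined. The remaining canonical ligand genes *DLL3* and *DLL4* did not exceed 0.104 and 0.0410 FPKM. *DLL1* made up 2.43% to 3.64% of the summed FPKM of *JAG1*, *JAG2* and *DLL1*, and the Jagged genes the rest.

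*RBPJ* (ENSG00000168214), on chromosome 4 between 26163455 and 26435131 (plus strand), encodes the factor through which all 4 receptors act on DNA. It was at 13.4, 9.86 and 13.2 FPKM across the WT lines and at 13.4, 11.7 and 15.3 FPKM across the KO lines. The groups overlapped, with WT replicate 2 below all KO libraries and KO replicate 3 above all WT libraries. The log2 fold change was 0.15 (standard error 0.18, 95% interval -0.27 to 0.56, adjusted p = 0.695 from limma), which limits a change of the mean to between 0.827 and 1.48 times. On the log2 scale the change was 0.05 without KO replicate 3 and 0.008 without WT replicate 2.

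*HES1* (ENSG00000114315), on chromosome 3 between 194136148 and 194138732 (plus strand), encodes a basic helix-loop-helix repressor that is the classical direct target of Notch and RBPJ. It was at 40.8, 53.6 and 34.7 FPKM across the WT lines and at 33.7, 40.9 and 29.3 FPKM across the KO lines. KO replicate 2 lay inside the WT range, KO replicate 1 just below it and KO replicate 3 further below. Its log2 fold change was -0.30 (standard error 0.20, 95% interval -0.77 to 0.17, adjusted p = 0.4603 from limma). It was -0.13 without WT replicate 2, the library with the highest level, and -0.19 without KO replicate 3.

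*HES4* (ENSG00000188290), on chromosome 1 between 998962 and 1000172 (minus strand), encodes a related repressor that has no counterpart in the mouse. It was at 2.67, 5.28 and 4.202 FPKM across the WT lines and at 5.45, 5.41 and 8.90 FPKM across the KO lines. The lowest KO library was only just above WT replicate 2, and KO replicate 3 was far above both other KO libraries. The mean went from 4.05 ± 1.31 to 6.58 ± 2.004 FPKM (SD, n = 3 each), a log2 fold change of 0.65 (standard error 0.29, 95% interval -0.02 to 1.31, adjusted p = 0.305 from limma). Without KO replicate 3 the log2 fold change of *HES4* was 0.42, and without WT replicate 1 it was 0.41. The separation of the groups was lost when the libraries were scaled by the median of ratios, by quantiles or to the summed FPKM of nuclear genes, with log2 fold changes between 0.55 and 0.57. *HES4* was the only member called in any alternative, with an adjusted p of 0.0383 when the libraries were weighted by their quality in limma. In that fit WT replicate 1, the library with the lowest *HES4*, held 89.7% of the weight of the WT group, and over all alternatives the adjusted p of *HES4* ran from 0.0383 to 0.719.

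*HEY1* (ENSG00000164683), on chromosome 8 between 79762371 and 79767857 (minus strand), encodes a repressor of the related HEY family. It had the lowest level of the 10 genes, with 0.967, 0.303 and 1.06 FPKM across the WT lines and 2.12, 0.928 and 2.77 FPKM across the KO lines. KO replicates 1 and 3 were above all WT libraries, whereas KO replicate 2 was inside the WT range. The value of WT replicate 2 corresponds to about 20.5 fragments per kilobase of transcript, against 240.3 in KO replicate 3. The log2 fold change was 0.91 (standard error 0.39, 95% interval -0.005 to 1.83, adjusted p = 0.298 from limma). Because the level is close to the pseudocount, the log2 fold change moved from 1.24 with a pseudocount of 0.1 to 0.70 with a pseudocount of 1, and it was 0.61 without WT replicate 2 and 0.66 without KO replicate 3.

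**Figure D2:**
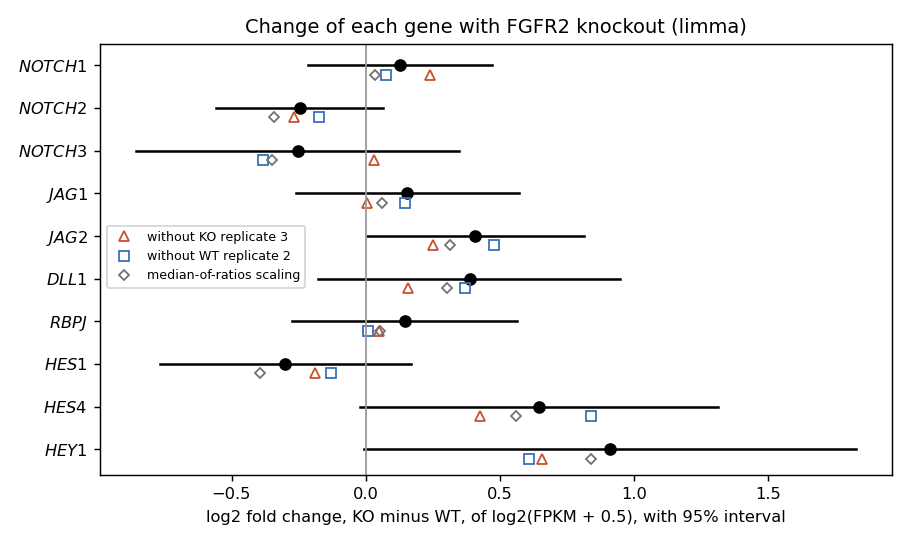
Log2 fold change of each gene, KO minus WT, on log2(FPKM + 0.5), as black points with the 95% interval from limma, and below each the value without KO replicate 3, without WT replicate 2 and with median-of-ratios scaling. The interval of *JAG2* starts at 0.004, all other intervals include 0, and *NOTCH3* and *JAG1* move to 0.03 and 0.004 without KO replicate 3.

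The start regions of *HES1* and *HES4* are shown because both genes are targets of the same factor and stood on opposite sides of 0. RBPJ binds a motif with the core TGGGAA, which was searched on both strands from 250 bases before to 50 bases after each start annotated by RefSeq in GRCh38.p14. Such windows were found for 8 of the 10 members, without *DLL1* and *HEY1*, and 5 of the 12 windows belong to different starts of *RBPJ*. The core was found 2 times in the *HES1* window, at -84 and -70 and 14 bases apart, and once in the *HES4* window, at -76, in each case on the strand of the gene. In the following, the 250 bases before the start of *HES1* (chr3:194135898-194136147, plus strand) are in lower case with the cores in capitals:

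HES1 upstream: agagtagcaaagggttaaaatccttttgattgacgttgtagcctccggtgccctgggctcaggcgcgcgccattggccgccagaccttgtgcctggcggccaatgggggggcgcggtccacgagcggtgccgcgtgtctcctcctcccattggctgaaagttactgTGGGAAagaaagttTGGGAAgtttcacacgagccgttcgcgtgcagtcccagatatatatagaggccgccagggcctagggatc

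Aligned without gaps on their longest shared run, the sites of *HES1* (chr3:194136055-194136084, plus strand) and *HES4* (chr1:1000153-1000182, minus strand) read, again with the cores in capitals:
HES1 site: aagttactgTGGGAAagaaagttTGGGAAg
HES4 site: gggcgagtgTGGGAAagaatgcggagccgg
The run tgTGGGAAagaa of 12 bases is common to both, and 17 of the 30 aligned bases are identical. The site of *HES4* lies upstream of the RefSeq start. As GENCODE 44 draws *HES4*, the gene begins at 1000172, so that most of the core, at 1000168 to 1000173, lies inside it. The core was also present 2 times in the window of 1 of the 5 *RBPJ* starts, and in none of the windows of *NOTCH1*, *NOTCH2*, *NOTCH3*, *JAG1* and *JAG2*. Of all 35116 windows of this length, 8439 hold the core at least once and 1333 at least 2 times, so that a single match is common. The N-box CACNAG, a motif bound by HES proteins, was found 4 times in the window of *HES1*, also in those of *NOTCH1*, *NOTCH2*, *NOTCH3* and 1 *RBPJ* start, and not in that of *HES4*, against 38.0% of all windows with at least 1 match. The related class C site CACGCG was found 2 times in *HES1* and once each in *JAG1* and *JAG2*, and it was present in 2 of the *RBPJ* starts (11.4% of all windows), and CACGTG in no window of a member (7.26% of all windows). None of these motifs overlapped a TGGGAA core in *HES1* or *HES4*. These matches describe the reference sequence only, since no binding was measured.

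Across all 6 libraries, the receptors, the Jagged ligands and *HES1* were expressed well above the other members. *JAG1*, *NOTCH3*, *JAG2*, *HES1*, *NOTCH2* and *NOTCH1* had means of 75.4, 56.4, 52.0, 38.8, 34.5 and 33.1 FPKM, in this order, and none of these genes was under 29.0 FPKM in any library. *RBPJ* followed with 12.8 FPKM and a range of 9.86 to 15.3 FPKM, then *HES4* with 5.32, *DLL1* with 4.04 and *HEY1* with 1.36 FPKM. In 3 of the 9 neighbouring pairs of this order the first gene was above the second in all 6 libraries, which were *NOTCH1* over *RBPJ*, *RBPJ* over *HES4* and *DLL1* over *HEY1*. For these pairs the two-sided exact sign-flip permutation test gave p = 0.0312, the smallest that 6 libraries allow, and an adjusted p of 0.0938 over the 9 pairs. Neighbours among the first 6 genes changed places in 1 or 2 libraries, and *HES4* and *DLL1* in 1. For these pairs the adjusted p of the same test lay between 0.188 and 0.719, which does not show their levels to be equal.

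Ratios within a library do not move with its scaling, and 5 of them were compared between the groups. The ratio of *HES1* to *HES4* was 15.3, 10.2 and 8.27 across the WT lines and 6.19, 7.56 and 3.29 across the KO lines. All KO lines thus had a lower ratio than any WT line, and the mean log2 ratio differed by -1.02 (exact permutation test, two-sided, p = 0.1, which is as low as 3 against 3 can give, and 0.375 adjusted over the 5 ratios). Without KO replicate 3 the difference was -0.67, and without WT replicate 1 it was -0.77. *HES1* made up 86.8% to 91.8% of the summed FPKM of *HES1*, *HES4* and *HEY1* in WT and 71.5% to 86.6% in KO libraries, while *HES4* made up 6.01% to 10.5% and 11.4% to 21.7%.

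The ratio of *JAG1* to *JAG2* ranged from 1.43 to 1.95 in WT and from 1.23 to 1.47 in KO libraries and overlapped (exact permutation p = 0.3). *NOTCH1* and *NOTCH2* stood at nearly equal levels, with a ratio of 0.704 to 0.982 in WT and 0.909 to 1.27 in KO libraries (exact permutation p = 0.2). *NOTCH1* had 23.4% to 25.6% of the summed receptor FPKM in WT and 27.6% to 30.9% in KO libraries, a separation that was noticed after the values had been seen and was not tested. The summed receptors to the summed ligands were near parity in all libraries, between 0.902 and 1.19, except KO replicate 3 with 0.540. The log2 difference of this ratio was -0.41 (exact permutation p = 0.3) and -0.10 without KO replicate 3. *HES1* per summed receptor ranged from 0.256 to 0.444 in WT and from 0.247 to 0.332 in KO libraries (exact permutation p = 0.6).

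**Figure D3:**
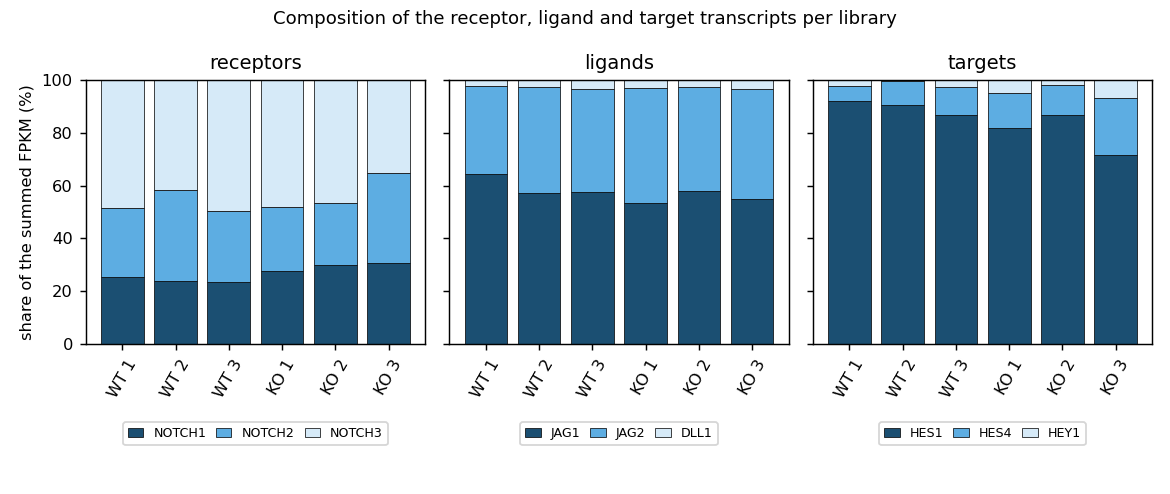
Share of the summed FPKM, in percent, of each receptor, ligand and target gene in each of the 3 WT and 3 KO libraries, as stacked bars that add up to the whole. *NOTCH3* holds 35.2% to 49.5% of the receptors and *HES1* 71.5% to 91.8% of the targets, with the smallest share of both in KO replicate 3.

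The wider Notch pathway was followed in 8 lists of genes arranged by role, with 82 genes beside the members, of which 69 averaged 0.5 FPKM or more. Limma called 0 of these 69 genes, as it called 0% of all tested genes. By the unadjusted p and the same minimum change it found 6 higher and 5 lower in KO lines, against 10.2% and 2.33% of all tested genes. These counts moved with single libraries. They became 4 and 1 without KO replicate 3, 4 and 0 without WT replicate 2, and 3 and 1 without WT replicate 1. They became 5 and 2 without KO replicate 1, and 7 and 9 without KO replicate 2. The counts over all tested genes, 1251 higher and 285 lower, moved as well. In the same order of libraries left out, these were 535 and 95, 977 and 160, 766 and 194, 1227 and 335, and 1747 and 509. In the main comparison the groups did not overlap for 5 higher and 6 lower of the 69 genes. Over all 12241 tested genes this held for 2245 higher and 706 lower (18.3% and 5.77%). The median log2 fold change of the 69 genes was -0.003, beside 0.09 for all tested genes. With median-of-ratios scaling, which set the median of all genes to 0.00 and turned the split of all genes at the unadjusted threshold from 1251 higher and 285 lower into 817 and 488, the median of the 69 genes was -0.09. Genes named from these lists are the most abundant ones and those with the largest changes among the genes whose groups did not overlap. For the latter, the lack of overlap was thus part of how they were chosen. *NRARP* and *HES5* were chosen after their values were seen.

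Besides the members, few Notch ligands or receptors were expressed, and only 3 of 9 genes on the list of other receptors and ligands were tested. *CCN3*, which encodes a secreted matricellular protein reported to bind NOTCH1, was at 2.14, 1.73 and 3.19 FPKM across the WT lines and at 3.87, 3.72 and 6.99 FPKM across the KO lines. It lay above the WT range in every KO library, with a log2 fold change of 0.89 (adjusted p = 0.261 from limma). *DLK2*, a Delta-like protein without the domain that activates the receptor, was at 2.84 to 5.32 FPKM.

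Of 10 tested genes for the glycosylation of the receptor and the trafficking of receptor and ligand, 9 had a higher mean in KO lines (7 with median-of-ratios scaling), with a median log2 fold change of 0.17. The most abundant were *POFUT1*, the O-fucosyltransferase of the receptor, at 35.4 to 53.2 FPKM in WT and 52.5 to 80.2 FPKM in KO libraries, and *FURIN*, which processes the receptor precursor, at 38.5 to 53.5 and 48.3 to 79.9 FPKM. *NEURL1B*, a ubiquitin ligase for Notch ligands, was the exception. It was at 14.6, 15.4 and 20.8 FPKM across the WT lines and at 11.4, 11.2 and 3.802 FPKM across the KO lines. Its log2 fold change was -1.03 (adjusted p = 0.274 from limma), with all KO values below the WT values, and -0.54 without KO replicate 3.

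The 8 genes of receptor cleavage were all tested, and 7 of them had log2 fold changes between -0.14 and 0.02. Among these 7, *APH1B* varied widely between lines, from 0.248 to 1.96 FPKM, with a 95% interval of -1.27 to 1.14. The protease gene *ADAM10* was at 141.9 to 168.2 FPKM in WT and 143.2 to 161.3 FPKM in KO libraries, and the γ-secretase subunit gene *APH1A* at 118.9 to 179.2 and 128.1 to 163.9 FPKM. The eighth, *PSEN2*, a catalytic subunit of γ-secretase, was at 0.819, 1.22 and 0.454 FPKM across the WT lines and at 2.07, 1.53 and 2.56 FPKM across the KO lines. Every KO value was above every WT value (log2 fold change 0.96, adjusted p = 0.261 from limma). The level of *PSEN2* is close to the pseudocount of 0.5, which makes the log2 fold change smaller. Its mean FPKM in KO lines was 2.47 times that in WT lines.

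Of 11 tested genes for the inhibition and turnover of the receptor, 5 had a higher and 6 a lower mean in KO lines. *AAK1*, an endocytic kinase that binds the Notch inhibitor NUMB, was at 20.3, 21.5 and 19.2 FPKM across the WT lines and at 12.3, 18.3 and 12.6 FPKM across the KO lines. *FBXW7*, the ubiquitin ligase subunit that marks the intracellular domain for degradation, was at 6.79 to 7.56 FPKM in WT and 4.57 to 6.33 FPKM in KO libraries. Both had all KO values below the WT values, with log2 fold changes of -0.51 and -0.33 (adjusted p = 0.261 and 0.363 from limma), and that of *FBXW7* was -0.20 without KO replicate 3. The most abundant genes of the list were *DTX4* and *ITCH*, both ubiquitin ligases. *DTX4* had its highest value, 119.7 FPKM, in WT replicate 2 and 32.6 to 55.8 FPKM in the other libraries, and *ITCH* ranged from 46.8 to 63.9 FPKM. *NRARP*, a feedback inhibitor and itself a direct Notch target, was at 6.90, 5.36 and 9.56 FPKM across the WT lines and at 23.5, 9.87 and 8.41 FPKM across the KO lines. The groups of *NRARP* overlapped, and KO replicate 1 was its highest library.

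Among the 8 nuclear coactivators, 2 had a higher mean in KO lines and 6 a lower one. *KAT2A*, a histone acetyltransferase, was at 23.8, 28.9 and 23.3 FPKM across the WT lines and at 39.7, 46.1 and 68.7 FPKM across the KO lines. All KO values of *KAT2A* were above the WT values (log2 fold change 0.98, standard error 0.22, adjusted p = 0.261 from limma). The acetyltransferase gene *CREBBP* (66.0 to 87.4 FPKM) and *SNW1* (59.6 to 78.0 FPKM) were the most abundant of the list. Of 15 corepressor genes, 7 had a higher mean in KO lines (4 with median-of-ratios scaling), and the median was 0.00. *L3MBTL3*, which binds RBPJ, was at 1.44, 1.37 and 2.56 FPKM across the WT lines and at 3.61, 2.94 and 4.55 FPKM across the KO lines, with a log2 fold change of 0.90. *TLE3*, a Groucho corepressor, was at 36.5, 29.3 and 29.5 FPKM across the WT lines and at 24.8, 27.0 and 22.7 FPKM across the KO lines, with a log2 fold change of -0.35. For both genes the groups did not overlap (adjusted p = 0.261 and 0.294 from limma). *HDAC1*, a histone deacetylase, led the list in level (165.5 to 193.8 FPKM).

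Of the other HES and HEY genes, 5 of 10 were tested, and *HES3*, *HES7*, *HEY2*, *HEYL* and *HELT* were under the filter. *HES2* was at 20.5 to 48.8 FPKM in WT and 29.6 to 36.5 FPKM in KO libraries, so that it was close to *HES1* in level. *BHLHE41*, a circadian repressor of the same superfamily, was at 114.6, 146.1 and 56.7 FPKM across the WT lines and at 45.4, 76.4 and 38.8 FPKM across the KO lines, with overlapping groups and a log2 fold change of -0.93 (adjusted p = 0.285 from limma). *HES5*, another classical Notch target, was at 1.33 to 2.25 FPKM over all libraries.

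The 10 genes of the list of other Notch targets had 3 higher and 7 lower means in KO lines, with a median log2 fold change of -0.02. *CDKN1A*, the cell cycle inhibitor p21 that Notch is known to induce in keratinocytes, was at 103.8, 107.5 and 111.5 FPKM across the WT lines. Across the KO lines it was at 94.9, 70.0 and 38.1 FPKM, all below the WT values (log2 fold change -0.76, standard error 0.30, adjusted p = 0.2796 from limma). Without KO replicate 3 the log2 fold change of *CDKN1A* was -0.40. *MYC*, a direct target in several cell types, was at 18.6, 29.3 and 25.2 FPKM across the WT lines and at 44.1, 29.3 and 57.7 FPKM across the KO lines. KO replicate 2 was above WT replicate 2 by less than 0.1 FPKM, and the log2 fold change was 0.80 (adjusted p = 0.261 from limma). The groups of *MYC* no longer separated with median-of-ratios scaling. *ID3* (229.8 to 486.2 FPKM) and *CCND1* (315.5 to 496.6 FPKM) were the most abundant of the list and overlapped between the groups.

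**Figure D4:**
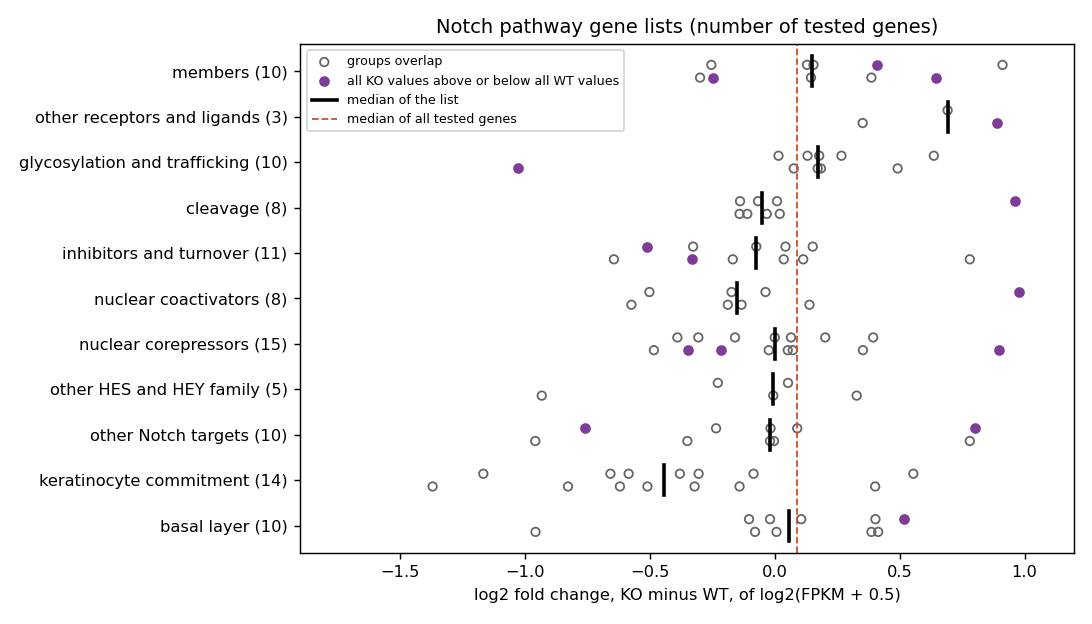
Log2 fold change, KO minus WT, on log2(FPKM + 0.5), of each tested gene of the members and of 10 lists, with the number of tested genes in brackets, the median of each list as a black bar and the median of all tested genes, 0.09, as a dashed line. Filled points are genes whose groups do not overlap, and the list medians lie between -0.45 for keratinocyte commitment and 0.69 for the 3 other receptors and ligands.

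Genes of keratinocyte commitment, the programme that Notch promotes in the epidermis, varied widely between lines. *KRT1*, a suprabasal keratin, was at 2254, 435 and 5121 FPKM across the WT lines and at 3024, 1145 and 259 FPKM across the KO lines. Its partner *KRT10* was at 956, 607 and 2056 FPKM and at 1503, 530 and 86.2 FPKM. For both genes WT replicate 3 was the highest and KO replicate 3 the lowest library, and *TGM1* had the same extremes. *DSG1*, *DSC1*, *KRTDAP* and *CALML5* were highest in KO replicate 1, and they too were lowest in KO replicate 3. *SPINK5* was highest in KO replicate 1 and lowest in WT replicate 2. *IVL* was highest in WT replicate 1 and lowest in KO replicate 1. The remaining tested genes of the list, *SBSN*, *GRHL3*, *OVOL1*, *FLG* and *TGM3*, also had their lowest value outside KO replicate 3. KO replicate 3 was the lowest library for 20.3% of all tested genes, and WT replicate 3 the highest for 9.46%. Of the 14 tested genes, 12 had a lower mean in KO lines with a median log2 fold change of -0.45, the groups overlapped in each of them, and limma called 0. Without KO replicate 3, only 5 of the 14 were lower and the median was 0.23, and without WT replicate 3, 7 of the 13 then tested were lower with a median of -0.03. Leaving out WT replicate 2 or KO replicate 1 moved the median the other way, to -0.89 and -0.86. Of the 10 basal layer genes, 6 had a higher and 4 a lower mean in KO lines, beside a higher mean in 60.6% of all tested genes. Their median log2 fold change was 0.06. On this list, *KRT5* and *KRT14* were the most abundant and overlapped between the groups. *KRT15*, named after its values were seen, also overlapped, with a log2 fold change of -0.96 (adjusted p = 0.296 from limma). *LAMA3*, a laminin-332 chain, was at 47.0, 55.7 and 60.4 FPKM across the WT lines and at 77.2, 68.5 and 88.3 FPKM across the KO lines (log2 fold change 0.52, adjusted p = 0.261 from limma).

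KO replicate 3 was the library in which the members moved most. It held the highest value of *JAG1*, *JAG2*, *DLL1*, *RBPJ*, *HES4* and *HEY1* and the lowest of *NOTCH3* and *HES1*, which is 8 of the 10 members, beside 59.0% of all tested genes. WT replicate 2 held the highest value of *NOTCH2* and *HES1* and the lowest of *NOTCH1*, *RBPJ* and *HEY1*. KO replicate 3 also had the smallest mitochondrial share, and the part of this and of the commitment genes in its Notch values was not tested.

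As a description, the genes with the pattern most like 3 of the members over the 6 libraries were sought among the 9325 genes that averaged 5 FPKM or more. By Pearson's r of log2(FPKM + 0.5), *ORAI3*, *SSH3* and *ACSF2* were most like *HES1* (r = 0.998, 0.996 and 0.993), *MFSD14A*, *IL17RA* and *OPLAH* most like *NOTCH1* (r = 0.949, 0.938 and 0.936) and *SMURF2*, *CEMIP2* and *NEDD4L* most like *JAG1* (r = 0.982, 0.981 and 0.972). In all, 105 genes reached an r of 0.95 with *HES1*, 19 with *JAG1* and 0 with *NOTCH1*.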

How the data were processed

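Poly(A)-selected, strand-specific libraries of 3 WT and 3 *FGFR2* KO HaCaT lines were sequenced as paired ends. The authors trimmed reads with fastp 0.20.0 and pseudoaligned them with kallisto 0.46.1 to GRCh38.p13 with GENCODE release 37, and deposited FPKM per gene; how FPKM were calculated is not given in the sources used here. Of 21493 genes, 18 Y copies of pseudoautosomal genes were left out, and names and positions were taken from GENCODE release 44. Low values of genes with a single transcript were whole fragments, within 0.02, in 60.7% of cases (4% by chance), so that counts were not recovered and count models not run.

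Genes that averaged 0.5 FPKM or more were compared on log2(FPKM + 0.5) with limma (version 3.58.1, R 4.3.3), without further scaling, with a mean-variance trend and Benjamini-Hochberg adjustment. The fit was tested on simulated data. Single values and ratios were compared with exact two-sided permutation tests. The p-values measure the spread between cell lines. The members and lists were chosen with earlier results of these data known. Named list genes were the 2 with the highest mean and the 2 with the largest change among those without overlap. Of the genes this rule names, 1 is not reported here. Alternatives were other pseudocounts, filters, scalings, empirical Bayes settings and library weights, the replicate number as a block, and leaving out each library.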

Additional observations from a re-analysis of the deposited data

How the results depend on the processing

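Called genes were 0 of the members, 0 of the wider pathway genes and 0 of all tested genes under each of the 18 alternatives except library weights, which called 1396 genes in all, 11 wider pathway genes and 1 member, *HES4* (log2 fold change 0.94). *JAG2* then had an adjusted p of 0.0489 with a change under the minimum. With weights, the log2 fold change of *JAG1* turned to -0.092 and that of *RBPJ* to -0.004, and with 1 library left out at a time that of *NOTCH3* ran from -0.445 to 0.031, the latter without KO replicate 3. All other members kept their direction under every alternative, *HEY1* under the 17 in which it was tested. Leaving out 1 library at a time moved the log2 difference of the *HES1* to *HES4* ratio between -1.27 and -0.67, and that of *HES1* per summed receptor between -0.336 and 0.061, the latter without WT replicate 2. In WT libraries alone, 5 of 9 neighbouring pairs kept 1 order in all 3 libraries, against 3 over all 6 libraries. Scaling to nuclear genes and the values of lists, list genes and background without single libraries were added after seeing the data. The causes of these changes were not tested.

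The sample labels do not say that the numbers of the replicates pair the samples. Same-numbered WT and KO libraries correlated in their deviations from the group means at -0.206, 0.225 and 0.049, and the other pairs at -0.367 to 0.294. Deviations from a mean of 3 libraries sum to 0 for each gene, so these values cannot settle whether the samples were paired. With the replicate block, limma called 0 members, 0 wider pathway genes and 0 genes in all, with a smallest adjusted p of 0.0972. Counting error was not set against the spread between lines, and *HEY1* had the fewest fragments, 20.5 to 240.3 per kilobase. The design limits the exact tests of 3 lines against 3, which cannot give a p under 0.1.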
